A study of Mus musculus with 8 samples.

Results

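Resting macrophages with the Lsd1SA/SA knock-in were compared with resting wild-type macrophages, using the 4 untreated libraries of a series of 8. All cells were bone marrow-derived macrophages, which are cultures in which marrow precursors mature into macrophages, from mice on the C57BL/6 background. They were at passage 1 and had been kept without serum for 24 h. Wild type and Lsd1SA/SA each had 2 untreated libraries. The knock-in allele replaces normal LSD1 with a form that the labels call defective in phosphorylation, in every cell that carries it. The other 4 libraries, 2 of each genotype, came from cells given lipopolysaccharide (LPS), a bacterial cell wall component, for 2 h at a labelled dose of 1 mg/ml. No label says whether the 2 libraries of a group came from separate mice or cultures, and the p-values below rest on a spread that may be only technical. Of the 23366 genes in the table, 11919 passed a filter on low values and were tested.

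LSD1, encoded by Kdm1a, is a nuclear enzyme that removes methyl groups from histone lysines and works in complexes with the scaffold CoREST and with histone deacetylases. The title of the series places it between the kinase PKCα, encoded by Prkca, and NF-kB, the transcription factor family that switches on inflammatory genes. A resting macrophage takes up and degrades debris: it carries scavenger, Fc and complement receptors, makes large amounts of lysosomal protease, and keeps cytokine genes low until a receptor such as the LPS receptor is engaged. The untreated comparison asks what the altered LSD1 does before any such signal.

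The untreated libraries held 40379258 to 51749536 reads, and levels are the deposited values, which have the form of TMM-scaled CPM (read counts scaled to the size of the library; here scaled CPM). Xist, the RNA of the inactive X chromosome, stood at 389 and 413 in wild type and at 364 and 315 in Lsd1SA/SA. The Y-linked genes had 0 reads in all 4, so the untreated libraries shared 1 pattern of sex markers. The Xist groups do not overlap, but the log2 difference of -0.24 did not pass (limma adjusted p = 0.167). In the LPS libraries the pattern itself differed between genotypes, with Xist at 437 and 388 in wild type and at 0.367 and 0.212 in Lsd1SA/SA. Macrophage markers were high in each untreated library. Csf1r, the receptor for the growth factor of the lineage, stood at 1278 and 1210 in wild type and 1280 and 1266 in Lsd1SA/SA. Of the markers of other cells, Lum (fibroblasts), Mcpt4 (mast cells) and Calcr (osteoclasts) had 0 reads, 1 gene in each of those lists, while other members were read: Pdpn of the stromal list stood at 6.82 to 7.64, Prss34 of the mast cell and basophil list at 17.4 to 18.5 and Acp5 of the osteoclast list at 93.8 to 108. Summed neutrophil markers, led by Ngp and S100a9, stood at 539 to 556 in wild type and 547 to 556 in Lsd1SA/SA. In bulk samples fewer cells of a type and less RNA per cell cannot be told apart.

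The genotypes shared nearly the whole resting program, and 1 gene, Myl6b, passed the test. Across tested genes the log2 group means had a Pearson r of 0.998, a description over genes that share libraries. The fitted log2 difference (Lsd1SA/SA minus wild type, on log2(value + 1)) had a median of -0.0024 and lay between -0.20 and 0.19 for the central 90% of genes. Its 95% interval lay inside 1.5-fold in either direction for 11699 genes (98.2%). Of the 220 genes with a wider interval, 35 had a group mean of 5 or more. In 13 genes the estimate itself passed 1.5-fold, and in 1 it passed 2-fold. These folds are of value + 1, which shrinks those of low genes. For example, the means of Hspb1 (0.246 in wild type, 0.493 in Lsd1SA/SA) differed 2.00-fold, while its fitted log2 difference was 0.27. Genes without untreated reads, such as Ddx3y, also count as inside 1.5-fold. No gene stood at 0 in both libraries of a genotype with 10 reads or more in both libraries of the other. By limma with Benjamini-Hochberg adjustment, 1 of 11919 genes was called (0.00839%). At an unadjusted p under 0.05, 782 genes stood higher in Lsd1SA/SA (6.56%) and 835 lower (7.01%), which is 1617 in all.

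**Figure D1:**
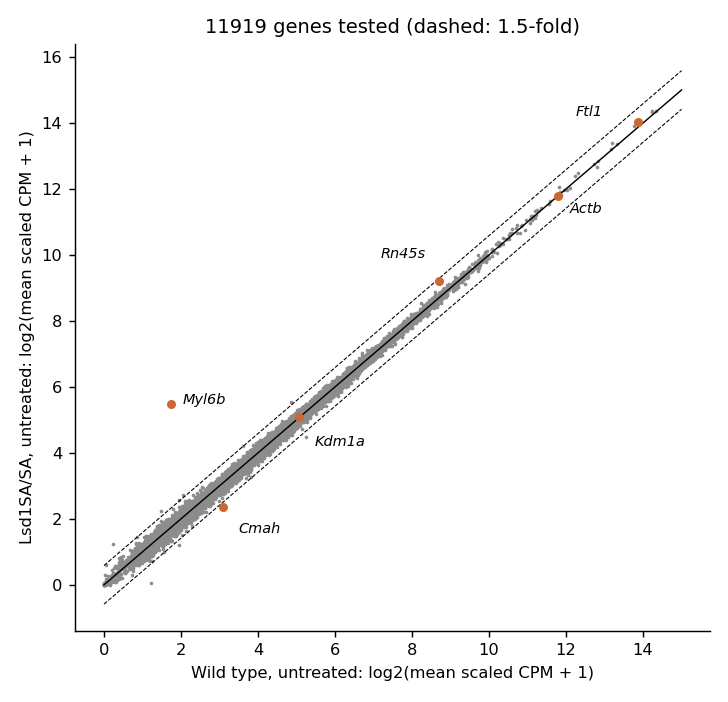
Each point is a tested gene, with the untreated wild-type mean on the horizontal axis and the untreated Lsd1SA/SA mean on the vertical axis, both as log2(scaled CPM + 1). Dashed lines mark 1.5-fold. The cloud follows the diagonal (r = 0.998), and Myl6b, at a log2 difference of 3.76, lies apart from it.

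The distances between libraries within a genotype overlapped those between genotypes. The median absolute log2 difference over tested genes was 0.088 between the wild-type libraries and 0.072 between the Lsd1SA/SA libraries. Across genotypes it was 0.065 and 0.087 for wild type replicate 1 against the Lsd1SA/SA libraries, and 0.099 and 0.12 for wild type replicate 2. The closest pair of all thus crossed genotypes, and the farthest pair did too. Wild type replicate 2 was the library farthest from the others. For scale, untreated libraries lay 0.25 to 0.27 from wild type with LPS and 0.23 to 0.27 from Lsd1SA/SA with LPS.

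Myl6b, which encodes a light chain of nonmuscle myosin, was higher in untreated Lsd1SA/SA. Its scaled CPM was 2.73 and 1.92 in wild type (147 and 83 reads) and 42.1 and 45.4 in Lsd1SA/SA (1833 and 2457 reads). The groups do not overlap, and the means differ 18.8-fold, 2.33 ± 0.572 against 43.7 ± 2.31 (SD, n = 2). The fitted log2 difference was 3.76 (SE 0.44, 95% interval 2.84 to 4.68, limma adjusted p = 1.83e-04). With LPS, the wild-type libraries split: replicate 1 stood at 5.00 and replicate 2 at 45.1, while Lsd1SA/SA stood at 38.9 and 40.4. Low Myl6b was therefore found in 3 of 4 wild-type libraries and the high level in the remaining wild-type library and all 4 of Lsd1SA/SA. The untreated call was lost with no filter on low values (limma adjusted p = 0.432), with a robust variance trend (0.263) and with no trend (0.445). DESeq2 gave Myl6b no adjusted p. Over the alternatives in which the call held, adjusted p ranged from 4.19e-21 to 0.00496.

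Myl6, which encodes the closely related and far more abundant light chain, is the next tested gene on chromosome 10 and on the same strand. It stood at 393 and 377 in wild type and at 457 and 481 in Lsd1SA/SA. The groups do not overlap, but the log2 difference of 0.28 (SE 0.057) did not pass (limma adjusted p = 0.0773). It passed with a robust variance trend (limma adjusted p = 0.0372), by edgeR on the untreated libraries alone (adjusted p = 0.0328) and by DESeq2 (adjusted p = 0.00554, over 3600 genes). Without wild type replicate 1, which leaves 1 untreated wild-type library, the limma log2 difference was 0.32. The difference of the means in scaled CPM is larger for Myl6 (385 ± 11.5 against 469 ± 17.1, SD, n = 2) than for Myl6b. In the LPS libraries Myl6 stood at 448 and 513 in wild type and 427 and 467 in Lsd1SA/SA, which overlap. Of the 20 tested genes nearest to Myl6b, 0 were called. Their log2 differences ran from -0.11 to 0.28 with a median of 0.053, and at an unadjusted p under 0.05 they held Myl6 and Smarcc2, a chromatin remodelling subunit at -0.11, named after its value was seen. None of these neighbours approached the size of the Myl6b difference.

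The sequences before the start sites of Myl6b and Myl6 are shown because Myl6b is the called gene and Myl6, its neighbour, had the smallest p around it. They are the 250 bases upstream of the annotated start in RefSeq's GRCm38.p6 tables, on the minus strand, at chr10:128498686-128498935 for Myl6b and chr10:128493887-128494136 for the first Myl6 entry. Capitals mark matches, on either strand, to the GC box GGGCGG, to the box CCAAT, to the TATA box TATAAA, to the CREB-type motif TGACG, or to an NF-kB motif.
Myl6b upstream: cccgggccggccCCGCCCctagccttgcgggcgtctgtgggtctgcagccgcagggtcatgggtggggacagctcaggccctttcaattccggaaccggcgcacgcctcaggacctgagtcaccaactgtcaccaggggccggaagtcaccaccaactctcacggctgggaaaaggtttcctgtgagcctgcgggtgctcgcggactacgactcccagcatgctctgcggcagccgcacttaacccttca
Myl6 upstream: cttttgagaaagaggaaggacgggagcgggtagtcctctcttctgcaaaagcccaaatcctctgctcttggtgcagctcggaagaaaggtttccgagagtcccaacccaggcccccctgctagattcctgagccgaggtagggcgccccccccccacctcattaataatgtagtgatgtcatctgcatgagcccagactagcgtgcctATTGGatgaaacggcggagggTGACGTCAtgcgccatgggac
The Myl6b sequence is 66.0% G and C, against 56.8% for the first Myl6 entry and a median of 52.4% over 32851 promoter entries. It holds 1 GC box, a motif found in 32.7% of entries, and 1 CANNTG (66.2% of entries), and no CCAAT (33.8%), TATAAA (12.4%), TGACG (17.8%) or NF-kB motif (7.25%). The Myl6 sequence holds 1 CCAAT, 1 match to CANNTG, and 2 to TGACG, which overlap on opposite strands. These matches describe letters, not bound sites.

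Sequence shared by the 2 genes was looked for only between annotated protein-coding transcripts. The Myl6b transcript is 1026 bases long, while the annotated exons of the gene cover 1847 bp, so some exon sequence was not compared. The longest exact run shared by the annotated protein-coding transcripts, 1 of Myl6b and 6 of Myl6, was 46 bases long and lay within the longest open reading frame of Myl6b.
Shared run: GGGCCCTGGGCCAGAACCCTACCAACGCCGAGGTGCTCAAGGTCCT
Of the 1002 words of 25 bases in the Myl6b transcript, 34 also occur in a Myl6 transcript. How reads in such a stretch were assigned is not given in the sources used here.

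**Figure D2:**
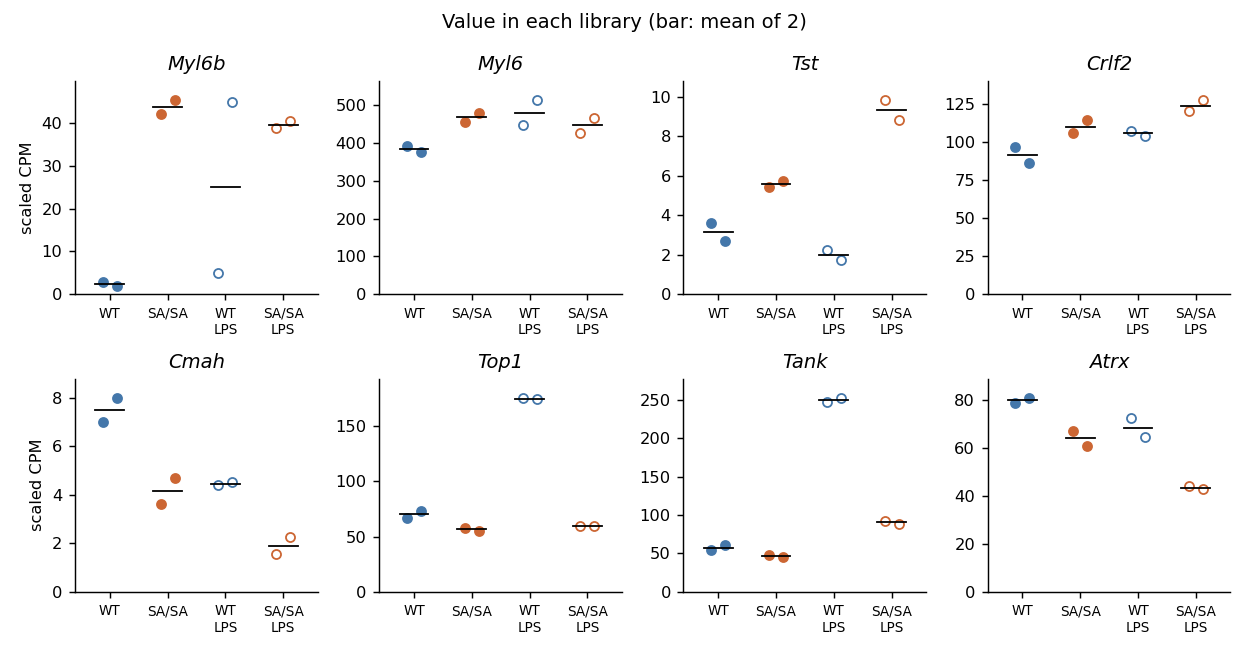
Scaled CPM of 8 genes in each of the 8 libraries, filled for untreated and open for LPS, with a bar at the mean of each group; each vertical axis starts at 0. Myl6b is near 2 in untreated wild type and above 40 in untreated Lsd1SA/SA, with the wild-type LPS libraries at 5.00 and 45.1. Tst, Crlf2, Cmah, Top1, Tank and Atrx show untreated groups that do not overlap. Their untreated means differ 1.77-fold for Tst, 1.81-fold for Cmah and 1.20- to 1.25-fold for the others.

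By level, the resting program common to both genotypes was one of iron storage, lipid carriage and lysosomal degradation. Levels between genes are compared as scaled CPM per kb of exon. The median tested gene stood at 5.08 per kb, and 30 genes exceeded 1000 per kb. In the untreated libraries 10 genes held 15.3% of all signal, 100 genes held 32.7% and 432 genes held 50%. Ftl1, the light chain of the iron store ferritin, was the highest, at 11591 and 10567 per kb in wild type and 12135 and 12728 in Lsd1SA/SA. Fth1, the ferritin heavy chain, stood at 5539 and 5599 against 5915 and 6115. Apoe, the apolipoprotein that carries cholesterol out of macrophages, stood at 7153 and 6916 per kb in wild type and at 7385 and 7963 in Lsd1SA/SA. These 3 genes were higher in both Lsd1SA/SA libraries than in either wild-type library, but none passed, with log2 differences of 0.11 to 0.17 (limma adjusted p = 0.269 for Ftl1, 0.411 for Apoe and 0.454 for Fth1).

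Of the 29 lists of resting functions, the lysosomal one held the largest share of signal. Psap, the precursor of the saposins that help degrade sphingolipids, stood at 7321 and 6827 per kb in wild type and 7502 and 7655 in Lsd1SA/SA. The protease gene Ctsd stood at 6146 and 5648 against 6389 and 6650, and Ctss, the cathepsin that processes antigen, at 4929 and 5065 against 5058 and 5114. Ctsb stood at 3475 and 3416 per kb in wild type and at 3531 and 3494 in Lsd1SA/SA. The 32 listed lysosomal genes together made up 9.27 and 9.48% of signal in wild type and 9.61 to 9.66% in Lsd1SA/SA. Of these 32, 0 were called, and 3 were higher and 0 lower at an unadjusted p under 0.05, with a median log2 difference of 0.027. Over all tested genes 6.56% were higher and 7.01% lower at that p, and these shares stand beside every list count below. Subunits of the vacuolar ATPase, the pump that acidifies lysosomes, had 4 of 16 higher and 1 lower at that p. Atp6v0b stood at 231 and 209 against 250 and 255 scaled CPM, and Atp6v0d2 at 292 and 331 against 278 and 282.

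Other genes near the top mark the lineage and its surface. Lyz2, the lysozyme of myeloid cells, stood at 5570 and 5396 per kb in wild type and 5344 and 5860 in Lsd1SA/SA, which overlap. B2m, the light chain of MHC class I, stood at 4696 and 5526 against 4814 and 4839, and Cd68, a macrophage lysosomal membrane protein, at 1661 and 1875 against 1757 and 1835. Both overlap as well. Spp1, which encodes the secreted protein osteopontin, stood at 2277 and 2239 per kb against 2193 and 2203. Among the 30 named genes of highest level were also the complement genes C1qb and C1qa, the galectin genes Lgals3 and Lgals1, the signalling chains Tyrobp and Fcer1g, the fatty acid transporter gene Cd36, and Grn, Gpnmb and Lgmn. H2-D1, an MHC class I heavy chain, stood at 2062 and 1845 per kb in wild type and 2176 and 2302 in Lsd1SA/SA. Its log2 difference of 0.20 did not pass (limma adjusted p = 0.177), and reads of such genes may be split between near-identical copies. With lengths taken from the longest transcript, 25 of these 30 genes stayed among the 30 highest.

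**Figure D3:**
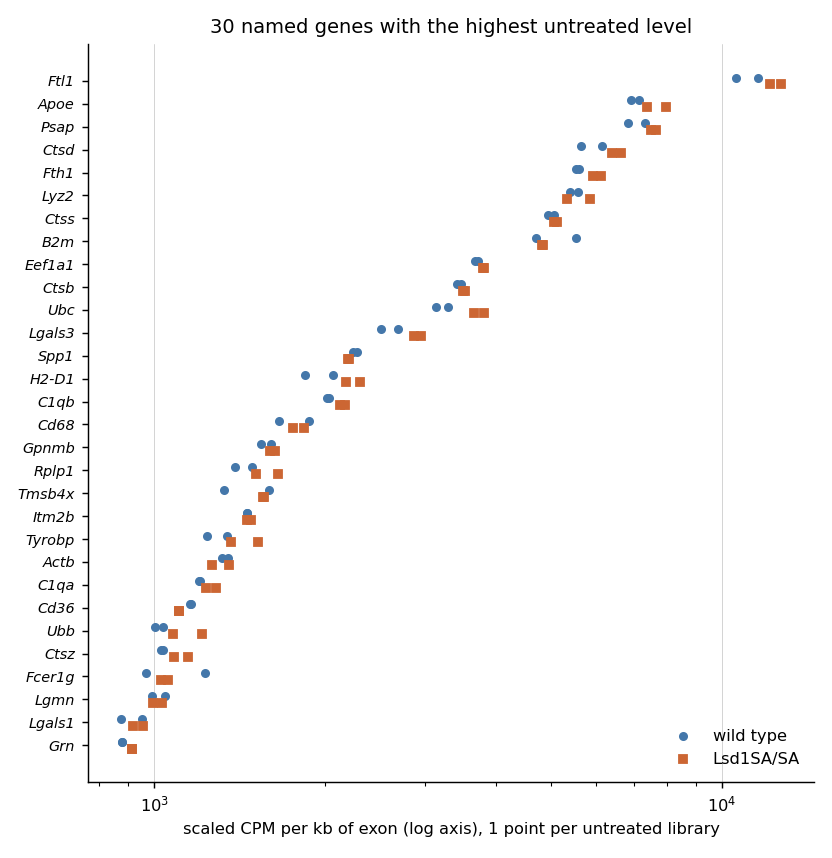
The 30 named genes of highest untreated level, on a log axis of scaled CPM per kb of exon, with 1 point per untreated library (circles wild type, squares Lsd1SA/SA). Levels run from Ftl1, at 10567 to 12728, to Grn, at 876 to 915, and within each gene the 4 points lie close together.

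Most listed receptors and opsonins of phagocytosis were kept at similar levels. Complement genes had 14 tested members, with 3 higher and 0 lower at an unadjusted p under 0.05 and a median of 0.013. The C1q chains, which opsonise apoptotic cells, were among the most abundant transcripts, and the gene C1qc stood at 1616 and 1471 scaled CPM in wild type and 1721 and 1776 in Lsd1SA/SA (log2 0.18, limma adjusted p = 0.162). Of 13 Fc receptor genes and signalling chains, 0 were higher and 1 lower. That gene was Lyn, a kinase that signals from Fc receptors, at 261 and 266 against 251 and 238. Of 19 scavenger and phagocytic receptors, 2 were higher and 3 lower, with a median of -0.062. Mrc1, the mannose receptor, stood at 801 and 864 in wild type and 754 and 691 in Lsd1SA/SA. The groups do not overlap, and the log2 difference of -0.20 did not pass (limma adjusted p = 0.127). Cd5l, a secreted scavenger protein of macrophages, stood at 1001 and 912 against 1025 and 1054.

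Of 29 macrophage identity genes, 7 were higher and 4 lower at an unadjusted p under 0.05, with a median of 0.032. Over all tested genes 6.56% were higher and 7.01% lower. Trem2, a lipid receptor, stood at 997 and 917 in wild type and 1038 and 1145 in Lsd1SA/SA, a log2 difference of 0.19. Maf, a lineage transcription factor, stood at 209 and 222 against 189 and 196, a log2 difference of -0.16. The adjusted p was 0.174 by limma for both. Together the listed identity genes made up 3.57 and 3.61% of signal in wild type and 3.60 and 3.73% in Lsd1SA/SA.

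Genes of the pathway named in the title of the series were present at rest and close between genotypes. Kdm1a stood at 33.9 and 31.1 in wild type and at 33.7 and 32.6 in Lsd1SA/SA, which overlap (log2 0.03). A level of RNA does not test the knock-in, which alters the protein. Prkca was low, at 2.77 and 3.03 against 3.65 and 2.40. The kinase C gene Prkcd, which encodes PKCδ, was far higher per kb, at 49.0 ± 1.22 in wild type and 50.3 ± 0.0129 in Lsd1SA/SA, against group means of 0.282 to 0.393 per kb for Prkce. Rela, the NF-kB subunit p65, stood at 107 and 106 against 108 and 107. Nfkbia, which encodes the inhibitor that holds NF-kB in the cytoplasm and is itself an NF-kB target, stood at 58.3 and 51.1 in wild type and 58.3 and 61.8 in Lsd1SA/SA. Its log2 difference was 0.14 (SE 0.056, limma adjusted p = 0.293).

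Of 22 tested members of the LSD1-CoREST complex and its partners, 1 was higher and 1 lower at an unadjusted p under 0.05 and 0 were called. The scaffold gene Rcor1, which encodes CoREST itself, stood at 23.4 and 24.2 in wild type and 20.7 and 21.0 in Lsd1SA/SA (log2 -0.19, limma adjusted p = 0.278). Mbd3, a subunit of the NuRD complex, stood at 54.7 and 48.1 against 53.2 and 61.5. Of 25 NF-kB subunits, inhibitors and kinases, 3 were higher and 2 lower, with a median of 0.0093. Of 23 Toll-like receptor signalling genes, 0 were higher and 5 lower, with a median of -0.063, against 6.56% higher and 7.01% lower over all tested genes. Cd180, a receptor homologue that restrains LPS signalling, stood at 522 and 601 against 509 and 484.

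Il6 and Il1b were near 0 or low in untreated libraries, while Tnf and several chemokines were read at rest. Tnf stood at 26.8 and 27.4 in wild type and 26.8 and 26.4 in Lsd1SA/SA, a log2 difference of -0.03 with a 95% interval of -0.13 to 0.07. The interval for Tnf thus allows little change either way. Il1b stood at 1.28 and 1.27 against 1.26 and 1.68, and Il6 was at most 0.161 in any library, near the level of a few reads. Ccl2, the monocyte chemokine, stood at 25.4 and 30.6 against 24.9 and 28.5. Some chemokines were abundant without LPS: Ccl5 stood at 437 ± 12.6 per kb in wild type and 469.8 ± 30.6 in Lsd1SA/SA, and Ccl6 at 299 ± 24.9 and 279 ± 3.26. Of 38 tested cytokines and chemokines, 2 were higher and 4 lower, with a median of -0.0070. Ccl3 stood at 107 and 135 against 107 and 107 scaled CPM, so that wild type replicate 2 alone was high.

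Some type I interferon response genes were also read at high levels at rest, though the 42 listed genes ranged from 0.717 to 428 per kb, with a median of 14.7. Whether an interferon signal was active was not tested. Irf7, the transcription factor that amplifies interferon production, stood at 540.3 and 557 in wild type and 576 and 572 in Lsd1SA/SA. Ifitm3, an antiviral membrane protein, stood at 413 ± 18.1 per kb in wild type and 443 ± 20.6 in Lsd1SA/SA. Of 42 type I interferon response genes, 4 were higher and 10 lower at an unadjusted p under 0.05, 0 were called, and the median was -0.034. Over all tested genes 6.56% were higher and 7.01% lower. Irf1 stood at 79.2 and 75.1 against 87.1 and 89.4 (log2 0.19), and Ifi44 at 17.4 and 21.7 against 15.7 and 15.5 (log2 -0.30). The list thus had members on both sides, with 29 negative and 13 positive estimates. Neither example passed (limma adjusted p = 0.127 for Irf1 and 0.167 for Ifi44).

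Immediate-early genes, which respond to stimuli within minutes, were led by Atf3 at 437 and 413 against 437 and 442 scaled CPM. Of 29, 1 was higher and 1 lower. Of 13 genes of MHC class II and co-stimulation, 4 were higher and 0 lower, with a median of 0.081, against 6.56% higher over all tested genes. H2-DMa, which helps load peptide onto class II, stood at 27.6 and 28.2 against 32.2 and 32.5 (log2 0.21, limma adjusted p = 0.204). Of 13 genes of MHC class I and antigen processing, 3 were higher and 1 lower. Of 12 genes of alternative activation, 2 were higher and 1 lower. Socs1, a brake on cytokine signalling, stood at 1.88 and 1.48 against 2.48 and 2.53 (log2 0.39, limma adjusted p = 0.171).

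Lists of ribosomal, proteasome and respiratory genes had more members above 0 than below, without a called member. Of 34 cytosolic ribosomal protein genes, 16 were higher and 0 lower at an unadjusted p under 0.05, against 6.56% higher over all tested genes, and 30 had a positive estimate. Their median log2 difference was 0.094. Rpl37 stood at 237 and 229 in wild type and 268 and 278 in Lsd1SA/SA. Proteasome genes had 11 of 23 higher and 0 lower, with all 23 estimates positive and a median of 0.10. Psmb10, an immunoproteasome subunit, stood at 73.3 and 72.8 against 80.5 and 84.3. The respiratory chain and ATP synthase had 9 of 24 higher and 0 lower, with 23 positive estimates and a median of 0.089. Cyc1, a subunit of complex III, stood at 46.6 and 38.4 against 49.4 and 50.6.

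Targets of NRF2, the regulator of antioxidant defence, had 6 of 15 higher and 1 lower, with a median of 0.081. Over all tested genes 6.56% were higher and 7.01% lower. Sqstm1, which encodes the autophagy receptor p62, stood at 1028 and 947 in wild type and 1084 and 1156 in Lsd1SA/SA. The lower member was Nfe2l2, the gene for NRF2 itself, at 272 and 296 against 260.1 and 256. Iron and heme genes had 3 of 12 higher and 0 lower. They made up 3.93 and 4.06% of signal in wild type and 4.24 and 4.36% in Lsd1SA/SA. Blvrb, a biliverdin reductase, stood at 222 and 209 against 235 and 256. Glycolysis genes had 3 of 23 higher and 1 lower. The lower gene was Hif1a, the hypoxia regulator, at 72.7 and 73.8 against 66.1 and 65.3.

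Other lists had more members below 0. Cholesterol synthesis and uptake had 0 of 18 higher and 3 lower, with a median of -0.069, and the cell cycle list held 2 of 30 members lower and 0 higher, with a median of -0.050. Mki67, a marker of dividing cells, stood at 53.7 and 61.8 in wild type and 49.1 and 45.9 in Lsd1SA/SA (log2 -0.27, limma adjusted p = 0.127). Pcna, the replication clamp, stood at 388 and 385 against 392 and 390, so the listed genes of dividing cells were not all on the lower side. Lpl, the lipoprotein lipase and an LXR target, stood at 6958 and 7368 against 6656 and 6422. The efflux list it belongs to had 2 of 14 higher and 2 lower. Over all 29 lists of resting functions, 16 medians lay above 0 and 13 below, from -0.074 for the protein kinase C family to 0.10 for the proteasome. These lists were chosen with results of these libraries known, so they describe the data and test nothing.

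The remaining lists were as close. Actin and myosin genes had 7 of 31 higher and 0 lower, against 6.56% higher and 7.01% lower over all tested genes. Myl6b, the gene of the list that passed, was the sole called member of any list. Actb stood at 3531 and 3605 in wild type and at 3624 and 3382 in Lsd1SA/SA, and Tmsb4x, the actin-binding thymosin, at 2183 and 1818 against 2142 and 2129. At an unadjusted p under 0.05, 3 of 16 genes of the integrated stress response stood higher and 0 lower. The same counts were 0 and 1 of 14 for heat shock, 1 and 2 of 22 for growth restraint genes linked to FoxO, and 0 and 1 of 7 for the protein kinase C family. Hspa8, a constitutive chaperone gene, stood at 1417 and 1501 against 1430 and 1431.

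**Figure D4:**
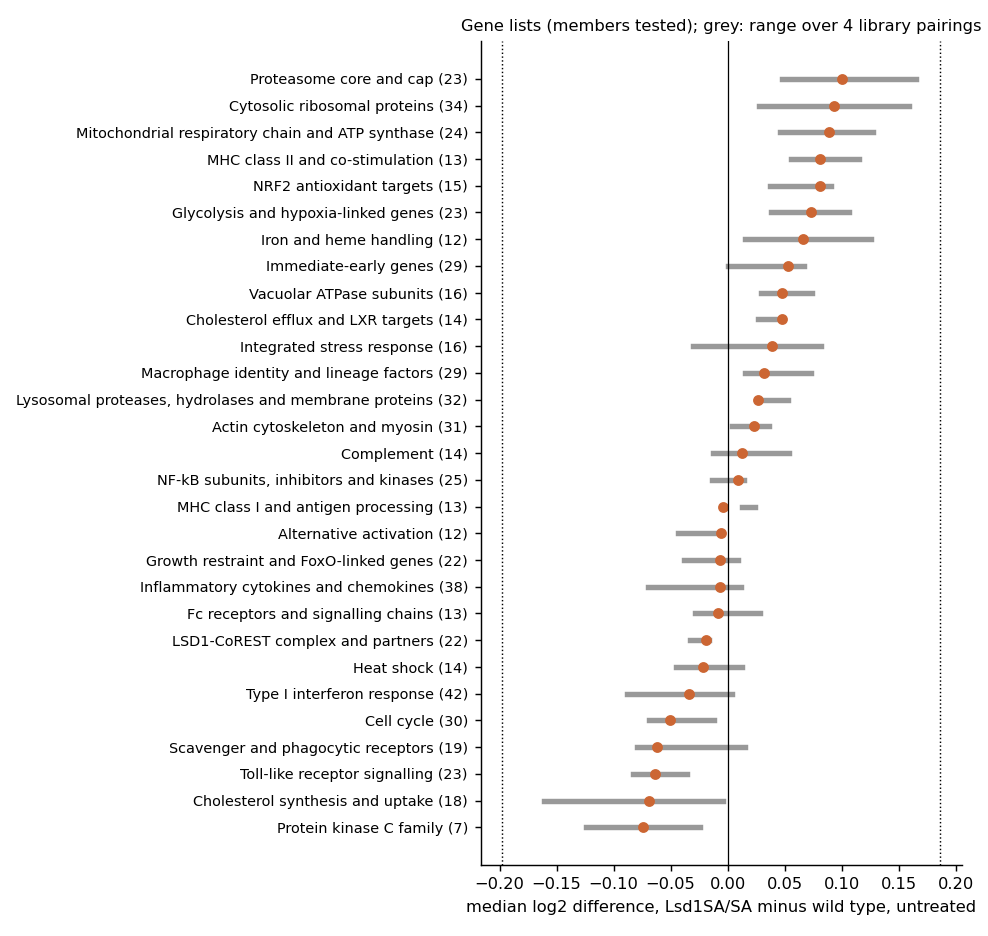
Median fitted log2 difference of each of 29 gene lists (dots), with the number of tested members in parentheses and the range of the list's median over the 4 pairings of a Lsd1SA/SA with a wild-type library (grey bars, which need not hold the dot). Medians run from -0.074 to 0.10. Dotted lines hold the central 90% of all tested genes taken singly. Medians of several genes spread less than single genes, so a dot inside the lines tests nothing.

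The summed stromal markers were 43.3 and 45.4 in wild type and 49.7 and 51.0 in Lsd1SA/SA, and the groups do not overlap. Of 13 tested members 0 were called and 1 stood higher at an unadjusted p under 0.05, where 6.56% of all genes did, and the median log2 difference was 0.16. Col1a1, a collagen gene of fibroblasts, stood at 3.18 and 3.42 against 5.10 and 4.56 (log2 0.44, limma adjusted p = 0.140), while Lum was at 0. Neutrophil markers had 0 of 15 tested members on either side. Lymphocyte markers summed to 79.1 to 82.7, mostly Cd4, which stood at 63.6 to 69.1. Erythroid and megakaryocyte markers summed to 184 to 199, mostly Pf4, at 174 to 188. Mast cell, basophil and eosinophil markers summed to 65.9 to 69.1, dendritic cell markers to 280 to 327 and osteoclast markers to 281 to 289. The part of such cells in any difference was not tested.

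Beyond Myl6b, the means of the genes with the smallest p whose groups do not overlap differed by up to 1.81-fold, in Cmah. Top1, which encodes the topoisomerase that relaxes DNA during transcription, stood at 67.1 and 72.7 in wild type and 57.8 and 55.4 in Lsd1SA/SA. Tank, an adaptor of NF-kB and interferon signalling, stood at 54.8 and 60.5 against 48.0 and 45.2. Both had a log2 difference of -0.30 and a limma adjusted p of 0.0627. Cmah, which encodes the enzyme that hydroxylates sialic acid, stood at 6.999 and 7.98 against 3.61 and 4.67 (log2 -0.73, limma adjusted p = 0.0627). That was the largest estimate on the lower side among named genes with a group mean of at least 5 and separate groups. These genes passed in some alternatives: Top1 and Tank by DESeq2 (over 3600 genes) and, like Cmah, with a robust trend. Cmah also passed by edgeR on the untreated libraries alone (adjusted p = 0.0162). Without wild type replicate 1, the limma log2 differences were -0.36 for Top1, -0.37 for Tank and -0.81 for Cmah. Wild type replicate 2, the library farthest from the others, was then the sole untreated wild-type library.

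The chromatin remodeller gene Atrx stood at 78.8 and 80.7 in wild type and 67.1 and 60.9 in Lsd1SA/SA (log2 -0.32). Pou2f2, a lymphoid and myeloid transcription factor, stood at 35.4 and 33.5 against 28.2 and 23.1 (log2 -0.42). Itga4, the integrin chain of VLA-4, stood at 68.0 and 72.0 against 59.7 and 56.6 (log2 -0.26). Tpr, a nuclear pore protein, Rbm25 and Luc7l3, both splicing factors, the RNA-binding protein gene Qk and the centrosomal gene Cntln were also among the 12 lowest-p genes on the lower side, at log2 differences of -0.23 to -0.42 and limma adjusted p of 0.0824 to 0.122.

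On the higher side, Tst, which encodes the mitochondrial sulfurtransferase rhodanese, stood at 3.62 and 2.71 in wild type and 5.44 and 5.74 in Lsd1SA/SA (log2 0.67, limma adjusted p = 0.0706). Crlf2, a chain of the TSLP receptor, stood at 96.7 and 86.2 against 105.9 and 114 (log2 0.27). Cyba, the p22phox subunit of the NADPH oxidase, stood at 582 and 535 against 630.2 and 658 (log2 0.21). Atf5, a stress-response transcription factor, stood at 108 and 97.3 against 115 and 132 (log2 0.26). Rpl37, Sec13, Tspan4, Ndufb3, Eif6 and Cyb561d2 lay at log2 differences of 0.23 to 0.37. Apart from Myl6b and Myl6, adjusted p ran from 0.0706 to 0.122 by limma on this side. In groups of this size an exact permutation test of a single gene cannot go below p = 0.333.

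The largest estimates among genes with separate groups also included 6 outside the 24 with the lowest p. Rn45s, the precursor of ribosomal RNA, stood at 438 and 387 in wild type and 654 and 531 in Lsd1SA/SA (log2 0.52, limma adjusted p = 0.551). Its LPS libraries ranged from 688 to 3058, with replicate 2 high in both genotypes. Il1f9, which encodes the cytokine IL-36γ, stood at 10.4 and 15.8 against 8.61 and 8.53 (log2 -0.53). Mzt2 (0.44) and Lins (0.40) stood higher, and Suv39h2, a histone methyltransferase gene (-0.44), and Npas4, an activity-induced transcription factor gene (-0.43), stood lower. By limma on all 8 libraries none passed. Rn45s passed by edgeR on the untreated libraries alone (adjusted p = 2.50e-04). Without wild type replicate 1, which leaves 1 untreated wild-type library, the limma log2 differences were -0.81 for Il1f9 and -0.54 for Suv39h2.

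The same 24 genes were read in the LPS libraries, which had no part in choosing them except through the shared estimate of spread. In 20 the LPS difference had the same sign as the untreated one, 8 of 12 on the higher side and 12 of 12 on the lower side. Among all tested genes 51.8% had a positive LPS difference and 48.2% a negative one. Of the 24, 18 were called with LPS in the same direction and 2, Rpl37 and Eif6, in the opposite direction. Among all tested genes 75.4% were called with LPS, counting both directions. Cmah stood at 4.40 and 4.52 in wild type and 1.56 and 2.24 in Lsd1SA/SA with LPS (log2 -0.92). Tst stood at 2.24 and 1.74 against 9.82 and 8.80 (log2 1.79, limma adjusted p = 9.36e-12). The LPS groups also differed in Xist and Y-linked reads, so genotype and sex cannot be told apart there.

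Small untreated differences moved with the exon length of the gene. Lengths were at hand for 11797 tested genes. From the shortest to the longest of 5 equal bins the median log2 difference went from 0.054 through 0.024, 0.0022 and -0.023 to -0.060. Genes higher at an unadjusted p under 0.05 went from 13.8% to 1.31%, and genes lower from 2.24% to 16.5%. Spearman's rho between length and difference was -0.33 across genes, which are not independent replicates. It was -0.26 between the Lsd1SA/SA libraries themselves (replicate 2 minus 1) and 0.086 between the wild-type libraries. The 4 pairings across genotypes ranged from -0.16 to -0.35, with both pairings of Lsd1SA/SA replicate 1 at the weak end.

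The 12 lowest-p genes on the higher side had a median exon length of 1984 bp and those on the lower side 10461 bp, against 4399 bp for all tested genes. With a smooth trend on length removed from each library, an alternative chosen after seeing the data, Myl6b was still the one gene called and 1375 genes had an unadjusted p under 0.05. The list medians then became 0.063 for ribosomal proteins, 0.058 for the proteasome, 0.074 for the respiratory chain and 0.043 for NRF2 targets. The median exon length was 1990 bp in the ribosomal list, 2300 bp in the proteasome list and 2239 bp in the respiratory list. Not every list moved this way: the stromal list, at 5838 bp, had a median of 0.16 before and 0.17 after removal, and the Toll-like receptor list, at 3727 bp, -0.063 before and -0.082 after.

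**Figure D5:**
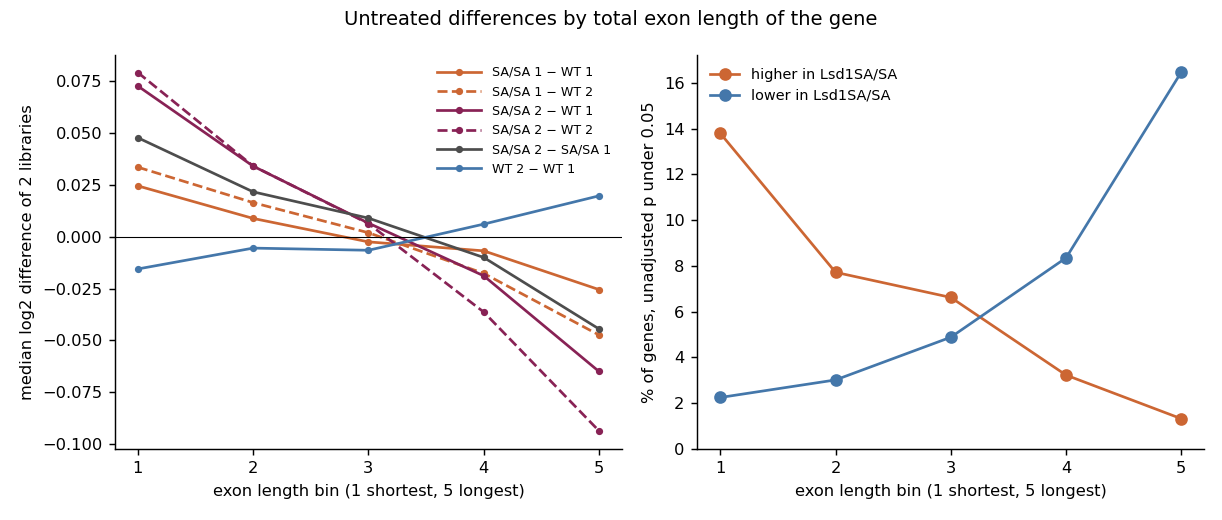
Left, the median log2 difference of pairs of untreated libraries in 5 bins of exon length, from the shortest genes (bin 1) to the longest (bin 5); right, the share of tested genes in each bin with an unadjusted p under 0.05, higher or lower in Lsd1SA/SA. The lines fall with length for every pairing across genotypes and for Lsd1SA/SA replicate 2 minus 1, and the shares cross from 13.8% higher in bin 1 to 16.5% lower in bin 5.

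Around the altered locus, of the 20 tested genes nearest to Kdm1a on chromosome 4, by gene order in another build than that of the table, 0 were called and 5 had an unadjusted p under 0.05 (Lypla2, Id3, Luzp1, C1qc and Eif4g3, named after their values were seen). Over all tested genes 6.56% stood higher and 7.01% lower at that p. The log2 differences of the 20 neighbours ran from -0.17 to 0.38 with a median of 0.042. Id3, a dominant inhibitor of transcription factors, stood at 0.891 and 0.717 in wild type and 1.26 and 1.44 in Lsd1SA/SA, a low level. The C1q genes that lie next to Kdm1a are those given with complement above.

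Several genes varied more between libraries of a genotype than between genotypes, and these were chosen after their values were seen. Ifi27l2b, an interferon-induced gene, stood at 12.5 and 43.5 in untreated wild type and 43.3 and 48.2 in Lsd1SA/SA. With LPS it stood at 45.4 and 0.0452 in wild type and at 0 and 0.282 in Lsd1SA/SA, so it was high or near 0 by library. Cd300lf, an inhibitory receptor of myeloid cells, stood at 53.5 and 20.1 against 17.9 and 24.7, with wild type replicate 1 apart. H2-K2, an MHC class I gene with near-identical relatives, stood at 96.7 and 53.0 against 66.0 and 97.3. Lyz1, a lysozyme gene closely related to Lyz2, stood at 872 and 816 against 840.1 and 1209. Genes that differed over 2-fold in value + 1 between the 2 libraries of a group numbered 4 in untreated wild type and 3 in untreated Lsd1SA/SA.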

How the data were processed

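The submitters' processing notes name the mm9 genome, the aligner TopHat2 2.0.9, bedtools and edgeR, with counting rule, strand and annotation not given in the sources used here. The authors deposited 1 table whose signal has the form of read counts divided by a TMM-scaled library size; this was worked out from the values, 100% of which are whole reads within 0.001. Low counts were even in 67.1 to 69.5% of cases, and counting by pairs is possible. Genes at 1 or more in at least 2 libraries were tested with limma 3.58.1 (R 4.3.3), 2-sided, on log2(value + 1), with eBayes and a variance trend. All 8 libraries entered 1 model of 4 group means (4 residual and 19.1 prior degrees of freedom), with Benjamini-Hochberg adjustment over all tested genes. Such fold changes understate those of low genes. edgeR 4.0.16 and DESeq2 1.42.0, on the recovered reads, were alternatives. The scripts were tested on simulated data.

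Exon lengths and gene order came from GENCODE vM21 (GRCm38). Motifs were searched on both strands, and TGACG matches can overlap. The members and the 37 gene lists were chosen with earlier results of these data known. Named were 10 genes of the pathway or study, called genes, the 12 smallest p and 5 largest differences per direction (groups not overlapping, higher mean at least 5), the 30 highest levels and, per list, the 3 highest levels and the smallest p each way. Predicted genes were counted, not named, and some genes under these rules are not reported here. Alternatives were pseudocounts, filters, scalings, variance trends, library subsets, the replicate block, count tests and, chosen after seeing the data, removal of a length trend.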

Additional observations from a re-analysis of the deposited data

Results flagged for a closer look

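The genes of the pathway and the study, the called gene and those with the smallest p or largest untreated differences were examined for a second contrast; genes named for their level or as list members were not counted here. For 29 of the 39 genes checked the genotype difference (Lsd1SA/SA minus wild type) differed between LPS and untreated libraries. The test was the interaction term of the same limma model, at an adjusted p under 0.05. The share of all tested genes that passed this term is not given here, so the count is not a result particular to these genes. In the LPS comparison of the genotypes 75.4% of all tested genes were called. The LPS libraries of the genotypes also differ in sex markers, so this term does not isolate LPS. Values are the LPS difference minus the untreated difference, in log2. Among genes of the pathway, Il1b stood at -9.92, Tnf -6.30, Nfkbia -4.52, Il6 -4.06, Ccl2 -3.17 and Rela -1.66, while Irf7 stood at 1.58. Kdm1a stood at -0.25, Prkca at -0.56 and Actb at -1.17. Myl6b stood at -2.47 (adjusted p = 0.0015), with the wild-type LPS libraries at 5.00 and 45.1, and Myl6 at -0.39. Among genes with untreated differences on the higher side that did not pass, Tst stood at 1.12, Cyba at 0.19, Lins at 0.46, Rpl37 at -0.35, Eif6 at -0.59 and Cyb561d2 at -0.38. Among those on the lower side, Itga4 stood at -1.57, Top1 at -1.24, Tank at -1.15, Il1f9 at -0.97, Tpr at -0.47, Qk at -0.47, Rbm25 at -0.38 and Atrx at -0.33, and Suv39h2 at 0.53, Npas4 at 0.46 and Pou2f2 at 0.32.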

How the results depend on the processing

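The count of called genes, 1 in the untreated comparison, depended on the processing. It was 0 with no filter on low values (1735 genes at an unadjusted p under 0.05) and 0 with no variance trend (1225). It was 18 with a robust trend, 8 by edgeR on the untreated libraries alone and 1 by edgeR on 8 libraries (1630 at an unadjusted p under 0.05). By DESeq2 it was 71, counted over 3600 genes against 11919 in the main test, so its adjusted p are over an unlike set of genes. DESeq2 gave Myl6b no adjusted p. Leaving out a library gave 1 to 481 calls: 481 without wild type replicate 1 (261 higher, 220 lower), 5 without wild type replicate 2, 2 without Lsd1SA/SA replicate 1, and 1 in the other cases. Leaving out an untreated library leaves 1 library in its group, and without wild type replicate 1 that library is the one farthest from the others. The cause was not tested. Among named genes, Cmah, Myl6, Atrx and Pou2f2 passed with a robust trend and by edgeR on the untreated libraries alone. Of these, Myl6 and Atrx also passed by DESeq2. Top1, Tank, Tpr, Itga4, Rbm25, Qk, Crlf2 and Rpl37 passed with a robust trend and by DESeq2. Same-numbered untreated libraries did not deviate together (correlation -0.048) and share only a number; with the replicate block 1 gene was called. Differences near 0 changed sign when a library was left out: Prkca ranged from -0.20 to 0.26, Kdm1a from -0.033 to 0.088, Rela from -0.000344 to 0.019, Ccl2 from -0.19 to 0.069, Il6 from -0.032 to 0.13, Il1b from -0.0088 to 0.24 and Actb from -0.077 to 0.022. Rela was -0.0086 with the length trend removed. The number of genes within 1.5-fold, the distances between libraries, and the 20 genes of like sign with LPS (19 to 22) stayed within 1.5 times of their values in the alternatives run.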
